A study of Homo sapiens with 18 samples.

Results

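The genes described here are 10 members of the BCL2 family, which sets whether a cell survives or dies through its mitochondria. They are the survival genes BCL2, BCL2L1, BCL2L2 and MCL1, the pore-forming effector BAK1, and the BH3-only death genes BCL2L11, BID, BIK, BMF and BAD. They were chosen by symbol in the DU145 table and then by Ensembl identifier in the tables of C4-2B and 22Rv1, out of 41440 genes found in at least 1 table, of which 18445 are in all 3. All 10 members were in every table, and all 10 passed the filter on low counts in every line. RNA was sequenced in 18 libraries from 3 human prostate cancer cell lines, with 3 control and 3 EMD knockdown libraries per line. EMD encodes emerin, a protein of the inner nuclear membrane. The C4-2B and 22Rv1 cells, kept in RPMI-1640, received EMD siRNA or a scrambled siRNA, and the mix was taken off after 24 h. The DU145 cells, kept in DMEM, were treated in the same way according to the protocol, but their knockdown library names read shEMD, and the labels do not settle which reagent was used. C4-2B is a castration-resistant derivative of the LNCaP line, 22Rv1 comes from a xenograft that relapsed after castration, and DU145 comes from a brain metastasis. Each line carries a batch label of its own, shared by its control and knockdown libraries. The time of harvest is not stated, and nothing says that triplicates were separate cultures, so the p-values measure the spread between these libraries, which may be technical.

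The BCL2 family acts on the outer membrane of mitochondria. BCL2, BCL-XL (from BCL2L1), BCL-W (from BCL2L2) and MCL-1 hold the effectors BAK and BAX in check. BH3-only proteins carry a short helix, the BH3 motif, that fits the groove of the survival proteins, and some also engage the effectors. Active effectors open the membrane, cytochrome c leaves, and the apoptosome then switches on caspases. Much of the control lies in the proteins: BID is cut by caspase-8, BAD is silenced by phosphorylation, and MCL-1 is short-lived. The values below are RNA levels per gene, which do not separate isoforms such as the long and short forms of BCL2L1, MCL1 or BCL2L11.

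The coding sequence of the BH3 core is shown because it is the stretch that both sides of the family share. A pattern of leucine or methionine, 3 free residues, glycine, serine or alanine, then aspartate, then one of glutamate, aspartate, glycine, serine, glutamine or methionine was searched in 1 GENCODE transcript model of each of the 10 genes. It was found exactly once in each of the 10. The pattern allows residues that single members need (methionine at the start for BCL2L2, serine for BAD and alanine for BMF). The match therefore shows where the stretch lies and is no test, and its rate in other proteins was not counted. The 21 bases of each match run 5′ to 3′ on the coding strand of GRCh38, each lies in 1 coding exon, and the capitals mark the codons of the small residue and the aspartate. Glycine came before the aspartate in 8 genes, serine in BAD and alanine in BMF.
BCL2 (chr18:63318358-63318378, minus strand): ctccgccaggccGGCGACgac
BCL2L1 (chr20:31721931-31721951, minus strand): ctgagggaggcaGGCGACgag
BCL2L2 (chr14:23307903-23307923, plus strand): atgcgggcagctGGAGATgag
MCL1 (chr1:150578874-150578894, minus strand): ttacgacgggttGGGGATggc
BAK1 (chr6:33575396-33575416, minus strand): ctcgccatcatcGGGGACgac
BCL2L11 (chr2:111150103-111150123, plus strand): ttgcggcgtattGGAGACgag
BID (chr22:17739424-17739444, minus strand): ctcgcccaggtcGGGGACagc
BIK (chr22:43127716-43127736, plus strand): ctggcctgcatcGGGGACgag
BMF (chr15:40104204-40104224, minus strand): cttcagtgcattGCAGACcag
BAD (chr11:64271631-64271651, minus strand): ctccggaggatgAGTGACgag

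Library totals were 14722733 to 25112148 reads in C4-2B, 15602874 to 30788078 in 22Rv1 and 21024352 to 43311727 in DU145. Levels are given as CPM, reads scaled by TMM to a common library size within each line, except where a scaling over all 18 libraries is named. The target EMD had 69.9 ± 4.53 CPM in control and 8.29 ± 1.82 in knockdown libraries of C4-2B (mean ± SD, n = 3 per arm). Its 22Rv1 values were 65.3 ± 4.38 and 19.4 ± 1.82, and its DU145 values 44.5 ± 3.54 and 4.8 ± 0.2. The epithelial genes EPCAM, KRT8 and KRT18 were expressed in all 3 lines and moved with knockdown, with log2 fold changes of -0.35, -0.67 and -0.31 in 22Rv1 (all fell) and 0.57, -1.63 and -0.53 in DU145 (EPCAM rose, the keratins fell). In C4-2B they were 0.03, -0.03 and 0.13, and KRT18 rose. Of 9 markers of blood, endothelial and fibroblast cells, 4 were tested in C4-2B, 2 in 22Rv1 and 5 in DU145. Their summed level was 52.8 to 55 CPM in controls and 46.2 to 51.5 in knockdowns of C4-2B, 21.5 to 25.5 and 5.68 to 7.59 in 22Rv1, and 2.79 to 4.57 and 3.58 to 5.24 in DU145. Most of the 22Rv1 sum was COL1A1, at 23.1 ± 2.07 CPM in controls and 6.38 ± 1.01 in knockdowns. Within the C4-2B sum, LYZ (1.99 ± 0.925 to 0.263 ± 0.0882 CPM) and VWF (21.5 ± 1.23 to 13.6 ± 1.04) fell and COL1A1 (28.7 ± 0.96 to 34 ± 2.07) rose, and in DU145 COL1A1 rose (1.57 ± 0.328 to 2.89 ± 0.371). The part of all these markers in the results below was not tested. PTPRC, CD3E and PECAM1 are not among the genes of the C4-2B and 22Rv1 tables.

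After EMD knockdown the family split differently in each line. In 22Rv1 and DU145, survival and death genes stood on both sides. In C4-2B the survival gene BCL2L2 rose, while the survival gene BCL2L1 and the death genes BMF and BAD fell. In 22Rv1, the death genes BMF and BCL2L11 fell to 0.398 and 0.501 of control, BID, BAD, MCL1 and BCL2L1 rose, and BAK1 and BCL2L2 fell. In DU145, BCL2L11 rose 2.43-fold and MCL1 1.36-fold while BCL2L1 fell to 0.736 of control. In C4-2B the called changes were small, from 0.827 of control for BMF to 1.2-fold for BCL2L2. In these bulk libraries, fewer cells that express a gene and less RNA per cell cannot be told apart.

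The counts of called members were close to the share of all genes called in each line, so they single out nothing about the family. In C4-2B, 4 of 10 members passed an adjusted p of 0.05 in edgeR, where 41.7% of all tested genes did. Of these 4, 1 rose and 3 fell (background 19.4% higher and 22.3% lower). With library totals in place of TMM scaling, 1 rose and 1 fell. In 22Rv1, 8 of 10 passed against 67.8% of all genes, with 4 up and 4 down (background 33.5% and 34.3%). In DU145, 6 of 10 passed against 47.6% of all genes, with 3 up and 3 down (background 24.1% and 23.6%). The 3 control and 3 knockdown libraries did not overlap for 4 members in C4-2B, 8 in 22Rv1 and 5 in DU145. Over all genes this held for 50.5%, 71.0% and 54.8% of those tested. The median log2 fold change of the 10 members was -0.03, -0.04 and -0.04 in C4-2B, 22Rv1 and DU145, beside 0.01, 0 and 0.01 for all genes. BCL2L1 and BMF were called in all 3 lines and BCL2 in none. BMF was the 1 member called in the same direction in all 3, and 5 members rose in one line and fell in another (BAD, BAK1, BCL2L1, BCL2L11 and BCL2L2).

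**Figure D1:**
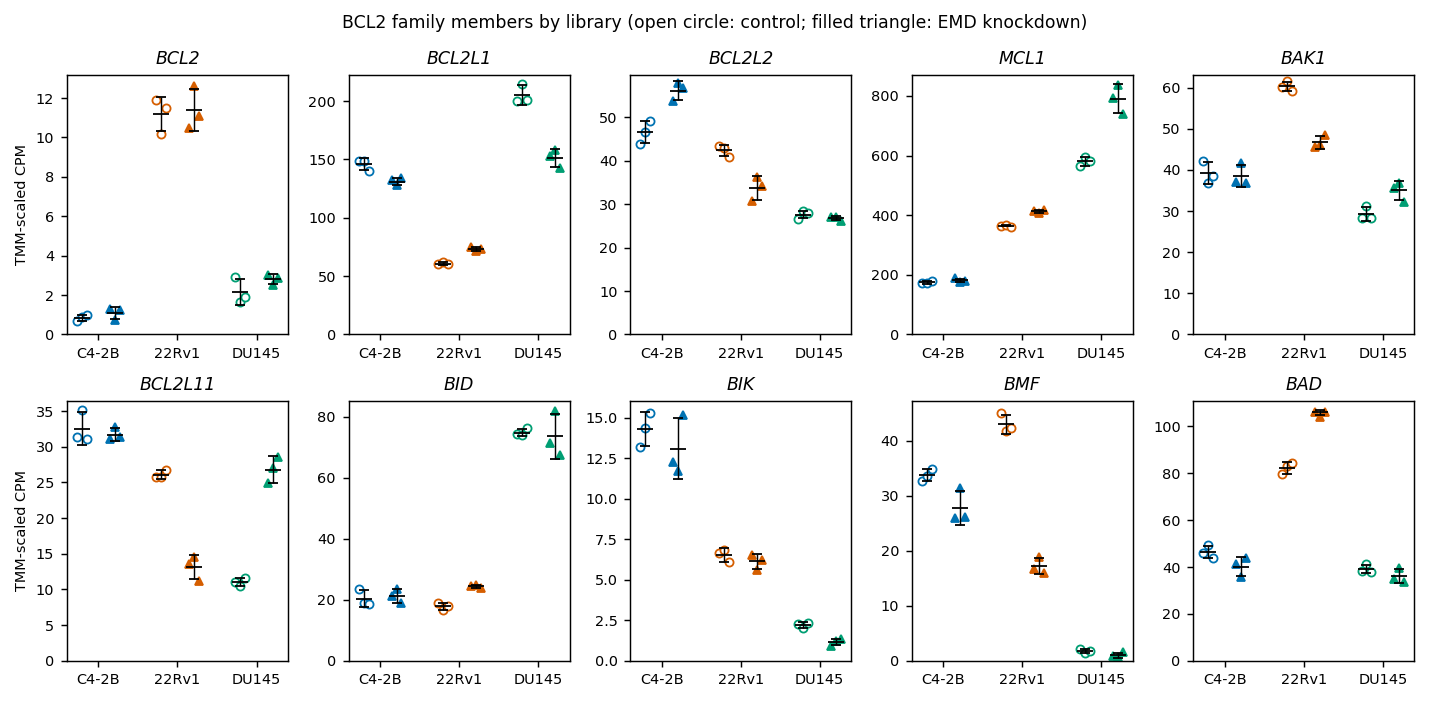
TMM-scaled CPM of each of the 10 members in each library of C4-2B, 22Rv1 and DU145 (vertical axis from 0), with control and EMD knockdown libraries side by side, points for single libraries and bars for the mean and SD. BCL2L11 is lower in all 3 knockdown libraries of 22Rv1 (11.2 to 14.5 against 25.7 to 26.8) and higher in all 3 of DU145 (24.9 to 28.6 against 10.5 to 11.6).

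Among the survival genes, BCL2L1, which encodes BCL-XL, fell in DU145 and C4-2B and rose in 22Rv1. In DU145 it read 200, 215 and 201 CPM in controls and 153, 158 and 143 in knockdowns, with every knockdown below every control. Its log2 fold change was -0.44 ± 0.05 (SE; edgeR adjusted p = 2.66e-08). In 22Rv1 it read 60, 61.9 and 60.3 CPM in controls and 74.6, 71.5 and 73.6 in knockdowns. All knockdowns lay above all controls there (log2 fold change 0.27 ± 0.05, edgeR adjusted p = 4.64e-05). In C4-2B it read 149, 149 and 140 CPM in controls and 132, 128 and 134 in knockdowns (-0.15 ± 0.04, edgeR adjusted p = 0.00774). This small fall lost its call with library totals (adjusted p = 0.0745). ABALON, an RNA on the opposite strand that shares 1424 exon bases with BCL2L1, held at most 3.72% of its reads in DU145 and 0.307% in the other lines.

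MCL1, which encodes the short-lived survival protein MCL-1, rose in DU145 and in 22Rv1. In DU145 it read 565, 595 and 580 CPM in controls and 794, 836 and 740 in knockdowns, a clear gap between the arms (0.45 ± 0.05, edgeR adjusted p = 3.08e-08). In 22Rv1 it read 365, 367 and 362 CPM in controls and 414, 408 and 417 in knockdowns (0.18 ± 0.03, edgeR adjusted p = 5.11e-05). The rise was smaller there, and the arms again did not overlap. In C4-2B it read 173, 173 and 180 CPM in controls and 188, 176 and 180 in knockdowns, arms that overlap (0.05 ± 0.04, edgeR adjusted p = 0.381).

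BCL2L2, which encodes BCL-W, rose in C4-2B and fell in 22Rv1. In C4-2B it read 43.9, 46.7 and 49.1 CPM in controls and 53.7, 57.9 and 56.7 in knockdowns (0.27 ± 0.06, edgeR adjusted p = 0.00163). In 22Rv1 it read 43.4, 42.9 and 40.9 CPM in controls and 30.7, 36.3 and 34.1 in knockdowns (-0.34 ± 0.07, edgeR adjusted p = 0.000177). The arms were apart in both of these lines, in opposite directions. In DU145 it read 26.6, 28.4 and 27.9 CPM in controls and 27, 27.1 and 26.2 in knockdowns, which overlap (-0.05 ± 0.06, edgeR adjusted p = 0.519). The readthrough gene BCL2L2-PABPN1 shares 813 exon bases with it on the same strand, so the counting divides some reads between the 2 genes. BCL2L2-PABPN1 had up to 24.4%, 37.4% and 57.2% of the reads of BCL2L2 in C4-2B, 22Rv1 and DU145. Its log2 fold changes were 0.38 ± 0.5, 0.45 ± 0.16 and 0.49 ± 0.14 in the same order. PPP1R3E, on the opposite strand with 206 shared bases, stood at 0.5 ± 0.11, -0.24 ± 0.13 and -0.31 ± 0.12. In the results for BCL2L2 in C4-2B, 22Rv1 and DU145, the part of these overlaps was not tested.

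BCL2, the founding survival gene, passed the edgeR test in no line (unadjusted p = 0.481, 0.936 and 0.0445 in C4-2B, 22Rv1 and DU145). DESeq2 gave adjusted p of 0.662, 0.974 and 0.199. In C4-2B it had only 10 to 24 reads per library (0.662, 0.891 and 0.97 CPM in controls, 1.28, 0.727 and 1.22 in knockdowns), and its log2 fold change was 0.33 ± 0.46. The 22Rv1 controls had 11.9, 10.2 and 11.5 CPM and the knockdowns 10.5, 12.6 and 11.1 (0.01 ± 0.11). The DU145 controls had 2.91, 1.67 and 1.9 CPM and the knockdowns 3.02, 2.52 and 2.85. The DU145 controls spread widely, with control 1 inside the knockdown range. Its log2 fold change there was 0.42 ± 0.2 (edgeR adjusted p = 0.0867), and 0.66 (edgeR adjusted p = 0.00695) without control 1.

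BAK1, the effector gene of the set, moved in opposite directions in 22Rv1 and DU145. The 22Rv1 controls had 60.1, 61.5 and 59.3 CPM and the knockdowns 45.6, 46 and 48.6, with no overlap (-0.37 ± 0.05, edgeR adjusted p = 4.06e-06). The DU145 controls had 28.3, 31.2 and 28.4 CPM and the knockdowns 35.7, 36.9 and 32.2 (0.25 ± 0.06, edgeR adjusted p = 0.00149). All knockdowns were above all controls in DU145. In C4-2B the arms overlapped, at 42.1, 36.9 and 38.6 CPM in controls and 37.1, 41.7 and 36.8 in knockdowns (-0.02 ± 0.08, edgeR adjusted p = 0.854).

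Among the BH3-only genes, BCL2L11, which encodes BIM, showed the widest split between lines. In DU145 it read 11.1, 10.5 and 11.6 CPM in controls and 24.9, 27 and 28.6 in knockdowns, and every knockdown library was more than 2-fold above every control library (log2 fold change 1.28 ± 0.07, edgeR adjusted p = 1.8e-14). In 22Rv1 it read 25.7, 25.8 and 26.8 CPM in controls and 13.5, 14.5 and 11.2 in knockdowns (-1 ± 0.09, edgeR adjusted p = 8.22e-09), which is a fall in all 3 libraries. In C4-2B it read 31.3, 35.2 and 31.1 CPM in controls and 31.1, 32.7 and 31.3 in knockdowns, arms that overlap (-0.04 ± 0.08, edgeR adjusted p = 0.754). MIR4435-2HG, a long non-coding RNA on the opposite strand, shares 727 exon bases with BCL2L11 and had up to 456% of its reads in DU145. In C4-2B it had up to 43.6% of the reads of BCL2L11, and in 22Rv1 it had 0 to 6 reads per library. The log2 fold change of MIR4435-2HG was -0.01 ± 0.05 in DU145 and -0.22 ± 0.13 in C4-2B. The part of this overlap in the values of BCL2L11 was not tested.

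BMF, whose protein is tied to the actin-bound motor complex until released, fell in all 3 lines. In 22Rv1 it read 45, 41.8 and 42.2 CPM in controls and 16.6, 18.8 and 16 in knockdowns, a 2.52-fold fall with a wide gap between the arms (-1.33 ± 0.07, edgeR adjusted p = 3.06e-12). In C4-2B it read 32.7, 33.5 and 34.9 CPM in controls and 25.9, 31.4 and 26.2 in knockdowns (-0.27 ± 0.09, edgeR adjusted p = 0.0114). Each knockdown was below each control, but the call was lost without control 3 (adjusted p = 0.051), without knockdown 1 (0.0522) and without knockdown 3 (0.0566). In DU145 it had 21 to 61 reads per library, at 2.1, 1.43 and 1.81 CPM in controls and 0.796, 0.736 and 1.51 in knockdowns, and knockdown 3 lay within the control range. The log2 fold change there was -0.78 ± 0.29 (edgeR adjusted p = 0.0265). It passed no longer with library totals (0.0667) or without control 1 (0.0793), control 3 (0.102), knockdown 1 (0.173) or knockdown 2 (0.0918).

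BAD, whose protein binds BCL-XL when it is not phosphorylated, rose in 22Rv1 and fell in C4-2B. The 22Rv1 controls had 79.5, 83.2 and 84.4 CPM and the knockdowns 106, 104 and 106 (0.36 ± 0.04, edgeR adjusted p = 4.48e-07). GPR137, on the opposite strand with 404 shared exon bases, had up to 143%, 56% and 81.8% of the reads of BAD in C4-2B, 22Rv1 and DU145, and the strandedness of the libraries is not given. GPR137 rose in 22Rv1 (0.4 ± 0.06, edgeR adjusted p = 3.05e-06) and stood at -0.13 ± 0.07 in C4-2B and -0.06 ± 0.06 in DU145. Its part in the values of BAD was not tested. The C4-2B controls had 45.9, 49.4 and 44 CPM and the knockdowns 41.1, 35.9 and 43.7 (-0.21 ± 0.08, edgeR adjusted p = 0.0313). The gap was narrow, and the call was lost with library totals (0.105), with DESeq2 (0.056) and without control 1 (0.0517), control 2 (0.128) or knockdown 2 (0.202). The DU145 controls had 38.2, 41.1 and 37.9 CPM and the knockdowns 35.1, 39.4 and 33.8, which overlap (-0.12 ± 0.06, edgeR adjusted p = 0.114), and without knockdown 2 it passed (-0.19, 0.0467).

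BID, the BH3-only protein that links death receptors to mitochondria, rose in 22Rv1, from 18.9, 16.7 and 17.9 CPM to 24.5, 24.8 and 23.8 (0.44 ± 0.08, edgeR adjusted p = 6.08e-05). In C4-2B it read 23.7, 19 and 18.5 CPM in controls and 21.4, 23.5 and 19.1 in knockdowns (0.08 ± 0.11), and in DU145 74.4, 73.9 and 76.2 against 71.3, 82 and 67.6 (-0.03 ± 0.06). The arms overlapped in both. BIK, a BH3-only gene whose protein sits mostly at the endoplasmic reticulum, fell in DU145, from 2.29, 2.03 and 2.31 CPM to 0.934, 1.23 and 1.32 (-0.93 ± 0.23, edgeR adjusted p = 0.00158). These levels rest on 34 to 85 reads per library. In C4-2B BIK read 13.2, 14.4 and 15.3 CPM in controls and 12.3, 11.7 and 15.2 in knockdowns (-0.14 ± 0.12), and in 22Rv1 6.64, 6.87 and 6.08 against 6.53, 5.63 and 6.24 (-0.08 ± 0.14), with overlap in both.

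In 22Rv1 the fold changes of all genes varied with their level. The median log2 fold change of all tested genes was -0.333 between 2 and 10 CPM, where BIK lies. It was -0.033 between 10 and 30 CPM, where BCL2L11, BID and BCL2 lie. Between 30 and 100 CPM, where BMF, BAK1 and BCL2L2 (which fell) and BCL2L1 and BAD (which rose) lie, it was 0.134. At 100 CPM and over it was 0.146, beside 0.18 for MCL1, which lies there. The part of this trend in the values of the members was not tested. In DU145 the median was -0.001 between 0.5 and 2 CPM, the range of BIK and BMF. The C4-2B medians also varied with level. They were 0.186 between 0.5 and 2 CPM, the range of BCL2, 0.129 between 2 and 10 CPM and -0.034 at 100 CPM and over. The part of this C4-2B trend in the values there was not tested either.

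**Figure D2:**
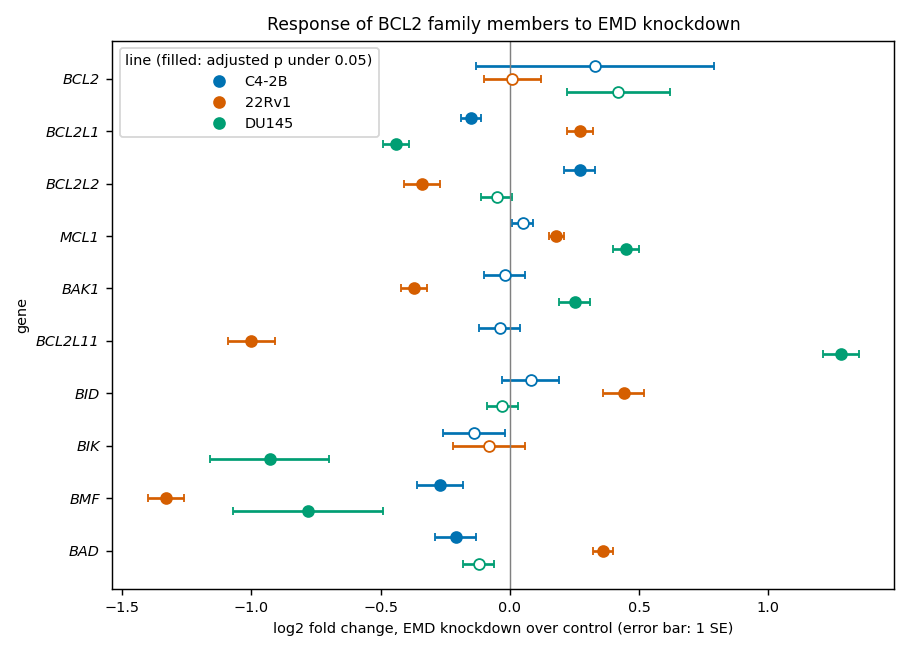
Log2 fold change of EMD knockdown over control (horizontal axis) for the 10 members (vertical axis) in each line, with bars of 1 SE, filled where the edgeR adjusted p is under 0.05. BCL2L11 lies at 1.28 in DU145 and -1 in 22Rv1, and BMF lies at -1.33 in 22Rv1.

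The response to knockdown was then compared between lines in 1 edgeR fit over the 18 libraries, on 17152 tested genes. Of the 10 members, 7 differed between C4-2B and 22Rv1 (background 56.1%), 6 between C4-2B and DU145 (background 45.7%) and 9 between 22Rv1 and DU145 (background 55.6%). Line, batch label and table coincide, and for DU145 the medium and possibly the reagent, and their parts cannot be told apart. The knockdown was also less deep in 22Rv1. The response of EMD itself differed by -1.29 ± 0.14 for C4-2B less 22Rv1 and 1.42 ± 0.14 for 22Rv1 less DU145. For C4-2B less DU145 it was 0.13 ± 0.16. The part of this unequal depth in the differences of the members was not tested. BCL2L11 had the largest gap, at -2.34 ± 0.12 (SE; 95% interval -2.58 to -2.1, edgeR adjusted p = 1.8e-17) for 22Rv1 less DU145. BCL2L1 differed by 0.65 ± 0.06 and BAK1 by -0.68 ± 0.09 in the same comparison, which is the pattern of BCL2L1 up and BAK1 down in 22Rv1 and the reverse in DU145. Between C4-2B and 22Rv1, BMF differed by 1.1 ± 0.14, BCL2L11 by 1.01 ± 0.12, BCL2L2 by 0.65 ± 0.09 and BAD by -0.52 ± 0.09. Between C4-2B and DU145, BCL2L11 differed by -1.33 ± 0.11, MCL1 by -0.41 ± 0.06 and BIK by 0.78 ± 0.23. These comparisons share the libraries of a line, so their values are not independent of each other.

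Several differences did not pass or rested on single libraries. The response of BMF differed by -0.66 ± 0.24 (edgeR adjusted p = 0.0227) between 22Rv1 and DU145, but by -0.5 (0.113) without DU145 control 2 and -0.23 (0.491) without DU145 knockdown 3. Between C4-2B and DU145 the BMF difference was 0.45 (95% interval -0.04 to 0.93, edgeR adjusted p = 0.128), and 0.88 (0.00331) without DU145 knockdown 3. BID between C4-2B and 22Rv1 stood at -0.31 ± 0.12 (edgeR adjusted p = 0.0341), with adjusted p of 0.109 under library totals, and between 0.0521 and 0.139 on leaving out in turn C4-2B control 1, C4-2B knockdowns 1 and 3, 22Rv1 control 2 and 22Rv1 knockdowns 1 and 2. For MCL1 between C4-2B and 22Rv1 the interval ran from -0.2 to 0.03, and for BIK in that comparison from -0.41 to 0.39. For BAD and BID between C4-2B and DU145 the intervals ran from -0.29 to 0.08 and from -0.13 to 0.32. BCL2 had wide intervals in all 3 comparisons, from -0.38 to 1.05, from -0.9 to 0.61 and from -1 to 0.04. Without DU145 control 1, BCL2 passed between 22Rv1 and DU145 (-0.69, 0.0217).

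**Figure D3:**
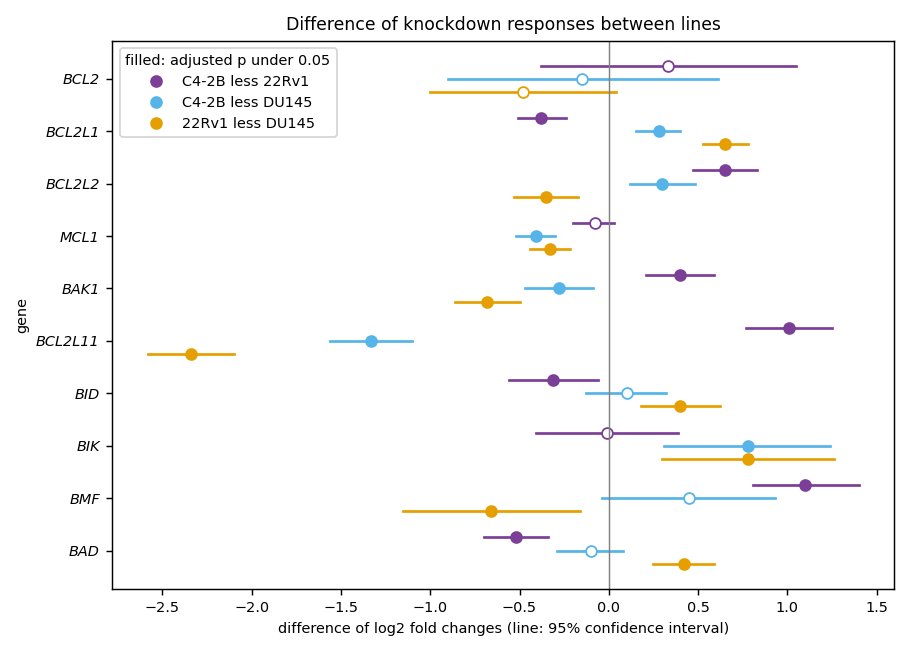
Difference between lines in the log2 fold change of knockdown over control (horizontal axis) for the 10 members (vertical axis), with 95% intervals from 1 fit over 18 libraries. The interval of BCL2L11 for 22Rv1 less DU145 runs from -2.58 to -2.1, and those of BCL2 span 0 in all 3 comparisons.

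The control levels of the members also differed between the lines, though line, batch label and table cannot be told apart here. The CPM in this and the next paragraph come from 1 TMM scaling over all 18 libraries, so they differ from the values above. For MCL1 in DU145 controls this scaling gives 627 CPM, beside 580 with DU145 scaled alone. Of 10 members, 8 differed between C4-2B and 22Rv1 (background 78.4%), 9 between C4-2B and DU145 (background 83.1%) and all 10 between 22Rv1 and DU145 (background 83.8%). BMF was at 33.2 ± 1.11 CPM in C4-2B, 42.9 ± 1.96 in 22Rv1 and 1.92 ± 0.339 in DU145 controls, a log2 difference of 4.53 ± 0.13 between 22Rv1 and DU145. BIK ran in another order, at 14.1 ± 1.03, 6.52 ± 0.345 and 2.39 ± 0.153 CPM. BCL2L11 was at 32.1 ± 2.29, 26.1 ± 0.833 and 11.9 ± 0.593 CPM, lowest in DU145, where it rose with knockdown. The same DU145 control libraries enter its level and its fold change there, so these values are not independent. BID was highest in DU145, at 80.9 ± 1.61 CPM against 20.1 ± 2.79 in C4-2B and 17.8 ± 1.24 in 22Rv1. The latter pair did not differ beyond their spread (log2 difference 0.15 ± 0.09, edgeR adjusted p = 0.117), and neither did BCL2L2 in that pair (0.12 ± 0.06, 0.0686) or BAD between C4-2B and DU145 (0.11 ± 0.06, 0.0987). The first passed without C4-2B control 3 (0.0412), the second without C4-2B control 1 (0.033) and with DESeq2 (0.0305) or its size factors (0.03), and BAD with library totals (0.00018) or without DU145 control 2 (0.0277).

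MCL1 was lowest in C4-2B controls, at 173 ± 4.22 CPM, followed by 22Rv1 at 364 ± 2.14 and DU145 at 627 ± 22.9. BCL2L1 was at 144 ± 4.93, 60.6 ± 0.456 and 222 ± 11.2 CPM, and BCL2 at 0.83 ± 0.159, 11.2 ± 0.981 and 2.33 ± 0.681 in C4-2B, 22Rv1 and DU145. BAK1 was at 38.7 ± 2.61, 60.2 ± 0.465 and 31.7 ± 2.07 CPM and BAD at 45.8 ± 2.67, 82.2 ± 2.66 and 42.2 ± 2.27. BCL2L2 was at 46 ± 2.64, 42.3 ± 1.12 and 29.9 ± 1.3 CPM. Per kilobase of merged exons, BCL2L1 and MCL1 led in C4-2B controls (43.5 and 39.6 CPM per kb), MCL1 and BAD in 22Rv1 (83.3 and 48.1) and MCL1 and BCL2L1 in DU145 (143 and 67). BCL2 was last in the controls of every line, at 0.0705, 0.952 and 0.198 CPM per kb in C4-2B, 22Rv1 and DU145. Merged exon length is the union over the GENCODE transcript models of a gene, which understates the level per kb where cells use a short form.

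**Figure D4:**
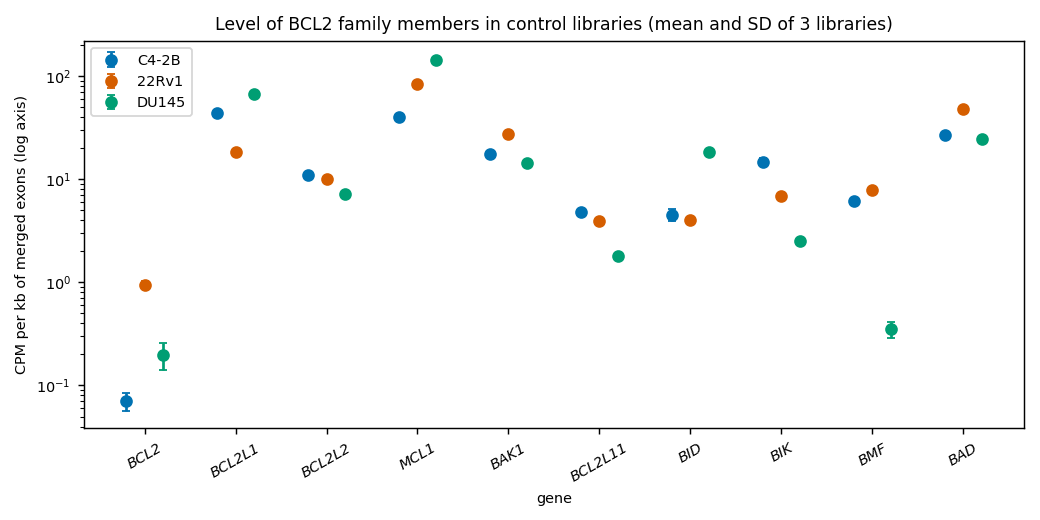
Control level of each member in the 3 lines, in CPM per kilobase of merged exon length (log scale), as points for the mean of 3 libraries with SD. MCL1 ranks first or second and BCL2 last in the controls of each line.

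Other genes of the death pathway give context from 5 lists of 65 genes. In C4-2B, 7 of 58 tested genes rose and 16 fell, with a median of 0 (12 and 14 with library totals). In 22Rv1, 23 of 56 rose and 21 fell, with a median of 0.04 (15 and 26 with library totals). In DU145, 19 of 63 rose and 20 fell, with a median of -0.01. Over all genes tested, 19.4% rose and 22.3% fell in C4-2B, 33.5% and 34.3% in 22Rv1, and 24.1% and 23.6% in DU145, with medians of 0.01, 0 and 0.01, and each list below is to be read beside these shares. The lists were counted by direction, and no set test was made.

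Among other BCL2 family genes, 3 of 9 tested rose and 3 fell in C4-2B, 2 of 9 rose and 7 fell in 22Rv1, and 4 of 13 rose and 3 fell in DU145. All 9 were thus called in 22Rv1, where 67.8% of all genes were. The medians were 0.05, -0.8 and -0.08. BBC3, which encodes the BH3-only protein PUMA, rose in C4-2B from 4.25 ± 0.422 to 17.3 ± 1.21 CPM (2.01 ± 0.14). It also rose in DU145 (0.89 ± 0.26), on only 22 to 71 reads per library, and fell in 22Rv1 (-0.8 ± 0.06). BAX, the other main effector, rose in C4-2B (0.45 ± 0.08) and 22Rv1 (0.52 ± 0.06), and stood at -0.08 ± 0.07 in DU145. The BH3-only genes HRK and PMAIP1, the latter for NOXA, fell in 22Rv1 by 2.74 and 1.8 on the log2 scale. HRK had 172 to 343 reads per library in controls there and 28 to 33 in knockdowns. Between 2 and 10 CPM, where HRK lies, the median of all 22Rv1 genes was -0.333, and its part was not tested. PMAIP1 also fell in C4-2B (-0.37 ± 0.11) and DU145 (-0.25 ± 0.06), and HRK stood at 0.3 ± 0.27 in DU145. BNIP3L, a receptor for removal of mitochondria, fell in 22Rv1 (-1.22 ± 0.05). It rose slightly in C4-2B (0.11 ± 0.04), just under the threshold (edgeR adjusted p = 0.0494). BOK, an effector-like member, fell in all 3 lines (-0.41 ± 0.05, -1.01 ± 0.06 and -0.52 ± 0.06 in C4-2B, 22Rv1 and DU145). BCL2L12 fell in C4-2B (-1.07 ± 0.13) and rose in 22Rv1 (1.01 ± 0.07) and DU145 (0.49 ± 0.07), and the survival gene BCL2A1 fell in DU145 (-1.37 ± 0.16).

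Downstream of the membrane, 0 of 13 genes of the apoptosome, caspases and released proteins rose and 3 fell in C4-2B by edgeR (0 rose at an unadjusted p under 0.05, and 0 by DESeq2). In 22Rv1 6 rose and 1 fell, and in DU145 6 rose and 2 fell. The medians were -0.01, 0.16 and 0.16 in C4-2B, 22Rv1 and DU145. CYCS, cytochrome c itself, fell in C4-2B (-0.73 ± 0.04) and rose in 22Rv1 (0.47 ± 0.05) and DU145 (0.2 ± 0.05). CASP2 rose in 22Rv1 (0.74 ± 0.06) and fell in DU145 (-0.8 ± 0.05), and APAF1, the apoptosome scaffold, fell in DU145 (-0.64 ± 0.07) while CASP9, its caspase, rose (0.67 ± 0.1). CASP6 fell in C4-2B (-0.42 ± 0.15) and rose in 22Rv1 (0.43 ± 0.08) and DU145 (0.39 ± 0.08). DIABLO, which blocks the inhibitors of apoptosis, rose in 22Rv1 (0.46 ± 0.05), and AIFM1 fell in C4-2B (-0.36 ± 0.05) and 22Rv1 (-0.21 ± 0.04) and rose in DU145 (0.3 ± 0.06).

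Of the inhibitors of apoptosis, 0 of 6 rose and 1 fell in C4-2B by edgeR (0 rose at an unadjusted p under 0.05, and 0 by DESeq2), 3 of 6 rose and 2 fell in 22Rv1, and 3 of 7 rose and 2 fell in DU145. Their medians were -0.02, 0.03 and 0.18. BIRC5, survivin, which also serves in mitosis, fell in C4-2B (-1.84 ± 0.07) and rose in 22Rv1 (0.63 ± 0.04) and DU145 (0.18 ± 0.05). BIRC3 and BIRC2, the ubiquitin ligases cIAP2 and cIAP1, rose in DU145 (1.24 ± 0.05 and 0.68 ± 0.05), where XIAP (-0.23 ± 0.05) and BIRC6 (-0.33 ± 0.06) fell. In 22Rv1, BIRC2 (0.18 ± 0.07) and BIRC6 (0.14 ± 0.05) rose, and BIRC3 (-1.74 ± 0.42) and NAIP (-1.12 ± 0.32) fell. Both falls rest on few reads per library, 28 to 36 in controls and 5 to 12 in knockdowns for BIRC3, and 18 to 94 for NAIP. Between 0.5 and 2 CPM, where both lie, the median log2 fold change of all 22Rv1 genes was -0.439. The part of that trend in these falls was not tested.

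Among death receptors and their adaptors, 3 of 12 rose and 1 fell in C4-2B, 3 of 10 rose and 4 fell in 22Rv1, and 2 of 12 rose and 5 fell in DU145. The medians were 0.05, -0.16 and -0.14. TNFRSF10B, the TRAIL receptor DR5, fell in all 3 lines (-0.23 ± 0.04, -2.02 ± 0.04 and -0.63 ± 0.05 in C4-2B, 22Rv1 and DU145). TNFRSF10D, a decoy TRAIL receptor, rose in C4-2B (0.89 ± 0.07) and fell in 22Rv1 (-0.64 ± 0.09) and DU145 (-0.67 ± 0.05). FAS rose in C4-2B (0.76 ± 0.18) and fell in DU145 (-0.81 ± 0.08). CASP8, which cuts BID, fell in 22Rv1 (-1.62 ± 0.25) and rose in DU145 (0.32 ± 0.06). In 22Rv1 it had 63 to 146 reads per control library and 24 in each knockdown library. RIPK1 rose in C4-2B (0.42 ± 0.08) and 22Rv1 (1.05 ± 0.08).

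Of 18 genes listed as regulators and partners of the members, 1 rose and 8 fell in C4-2B, 9 rose and 7 fell in 22Rv1, and 4 rose and 8 fell in DU145. The medians were -0.01, 0.06 and -0.11. FOXO1, a forkhead factor known to act on BCL2L11, fell in 22Rv1 (-1.5 ± 0.1) and rose in DU145 (0.59 ± 0.09), and stood at 0.28 ± 0.13 in C4-2B. FOXO4 fell in 22Rv1 (-1.8 ± 0.12). FOXO3, another forkhead factor, fell in all 3 lines (-0.15 ± 0.04, -0.38 ± 0.06 and -0.25 ± 0.06). E2F1, the cell-cycle factor, fell in C4-2B (-1.31 ± 0.08) and DU145 (-0.75 ± 0.07) and rose in 22Rv1 (0.2 ± 0.04). AKT1, the kinase that phosphorylates BAD, fell in all 3 lines (-0.35 ± 0.04, -0.41 ± 0.03 and -0.68 ± 0.05 in C4-2B, 22Rv1 and DU145). PIM1, which also does, fell in 22Rv1 (-0.52 ± 0.08) and DU145 (-0.78 ± 0.07). FBXW7, a ligase that marks MCL-1 for degradation, rose in 22Rv1 (0.59 ± 0.09). TP73 fell in 22Rv1 (-0.9 ± 0.13) and rose in DU145 (0.59 ± 0.23), where it had only 24 to 85 reads per library. The mitochondrial channels VDAC2 (-0.35 ± 0.04) and VDAC3 (-0.52 ± 0.06) fell in C4-2B, and VDAC3 fell in DU145 (-0.39 ± 0.05) and rose in 22Rv1 (0.57 ± 0.04).

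Of the genes of these lists, the one whose fold changes over the 3 lines lay nearest to BCL2L1 was TNFRSF10A, at a Euclidean distance of 0.18 log2 units (0.03, 0.28 and -0.41 in C4-2B, 22Rv1 and DU145). For BMF it was BOK, at a distance of 0.44. These were the nearest of 55 candidates and are given as a description over 3 points.

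**Figure D5:**
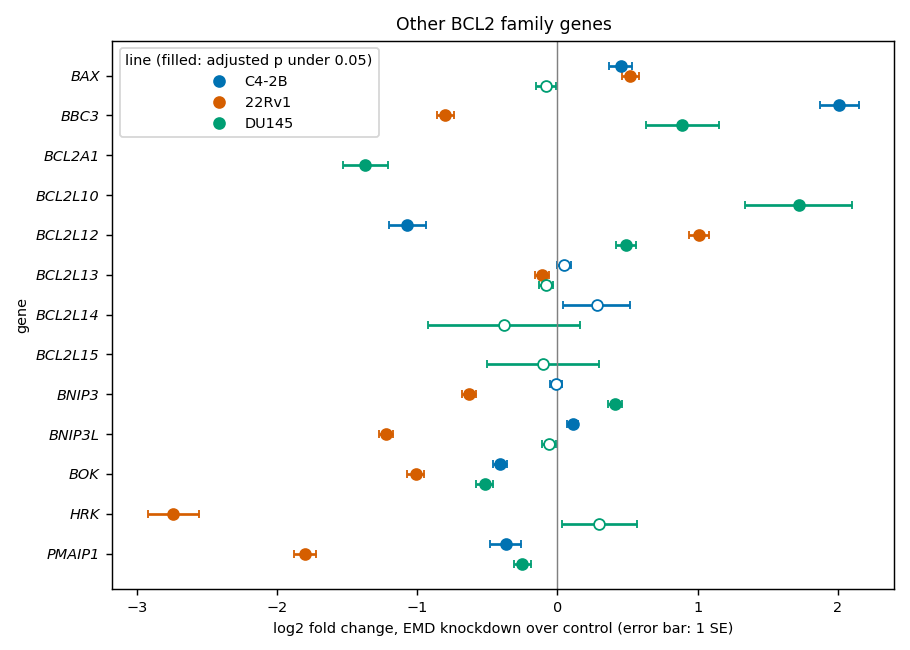
Log2 fold change of EMD knockdown over control for the other BCL2 family genes in each line, with bars of 1 SE, filled where the edgeR adjusted p is under 0.05. BBC3 lies at 2.01 in C4-2B and -0.8 in 22Rv1, and BOK lies below 0 in all 3 lines.

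The promoter of BCL2L11 is shown because FOXO factors are known to bind the forkhead core GTAAACA and because its RNA had the largest difference between lines. RefSeq windows from 250 bases before to 50 bases after the gene start (GRCh38.p14) were matched by symbol for 7 of the 10 members, 14 windows in all. The motif GTAAACA, or TGTTTAC on the other strand, was in 1 of the 14, that of BCL2L11, and in 3.42% of 35116 windows of all genes. It begins 223 bases before the RefSeq gene start of this window, in capitals below. The GENCODE model of BCL2L11 begins further upstream, at chr2:111119378, so the match lies within that model. The match is a description of the letters and does not show a bound site.
BCL2L11 (chr2:111120664-111120913, plus strand): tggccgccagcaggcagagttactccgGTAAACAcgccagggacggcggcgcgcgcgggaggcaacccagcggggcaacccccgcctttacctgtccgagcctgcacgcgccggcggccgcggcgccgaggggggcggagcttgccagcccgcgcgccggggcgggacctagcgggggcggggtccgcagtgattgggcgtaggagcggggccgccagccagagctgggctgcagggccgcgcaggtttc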

How the data were processed

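The authors deposited 1 table of gene counts per line. STAR, RSEM 1.3.1 and the build GRCh38 are named in the submitters' processing notes. The deposited expected counts are whole numbers, and the rounding step, the annotation release and the strandedness are not given in the sources used here. The DU145 table held 37378 entries, of which 92 spike-ins and 30 second copies of genes were left out. A symbol was matched to 99.21% of the genes of C4-2B and 99.1% of 22Rv1.

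Each line was fitted alone in edgeR 4.0.16 (R 4.3.3) with filterByExpr (minimum count 10, minimum total 15), TMM scaling and the robust quasi-likelihood F test, with Benjamini-Hochberg adjustment over all genes tested and a threshold of 0.05. The SE was taken as the size of the log2 fold change divided by the root of its F value. Differences between lines came from 1 fit over 18 libraries on the genes of all 3 tables. The fits were also run on simulated counts with the same dispersion for every gene and few changed genes. That setting differs from these data, so it does not check the calls made here. All 10 members were named; from the other lists, up to 4 per list and line with a mean of at least 1 CPM and arms apart, ranked by size. Beside a gene so named, its called values in the other lines, and some that were not called, were added after they were seen. FOXO3 was named outside this rule. The members and lists were chosen with earlier results of these data known. Alternatives were DESeq2 1.42.0, its size factors, library totals, no filter, a replicate block, 1 fit over 18 libraries and leaving out each library. Replicate libraries of an arm differed by 2.23 to 7.87 chi-square per degree of freedom, more than counting noise. The depth of 14722733 to 43311727 reads leaves BCL2 in C4-2B at 10 to 24 reads, where counting error is large. Some marker genes of the lines are not reported here.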

Additional observations from a re-analysis of the deposited data

Results flagged for a closer look

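For 22 pairs of member and lines, the response to EMD knockdown differed between 2 lines by a test of the difference itself (edgeR, adjusted p under 0.05, 3 libraries per arm). The values are differences of log2 fold changes. Between C4-2B and 22Rv1 they were -0.38 for BCL2L1, 0.65 for BCL2L2, 0.4 for BAK1, 1.01 for BCL2L11, -0.31 for BID, 1.1 for BMF and -0.52 for BAD. Between C4-2B and DU145 they were 0.28 for BCL2L1, 0.3 for BCL2L2, -0.41 for MCL1, -0.28 for BAK1, -1.33 for BCL2L11 and 0.78 for BIK. Between 22Rv1 and DU145 they were 0.65 for BCL2L1, -0.35 for BCL2L2, -0.33 for MCL1, -0.68 for BAK1, -2.34 for BCL2L11, 0.4 for BID, 0.78 for BIK, -0.66 for BMF and 0.42 for BAD. These are 7, 6 and 9 of 10 members, beside 56.1%, 45.7% and 55.6% of all genes. Groups of 3 libraries were not tested for single outlying libraries.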

How the results depend on the processing

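Of the members' knockdown values under the alternatives, 329 of 360 kept their direction and side of the threshold, as did 671 of 690 differences between lines and 654 of 660 control-level values. With library totals, members called in C4-2B went from 4 to 2, and genes called there were 3871 up and 2922 down against 3068 and 3516. Signs turned for values that passed no test. With library totals these were BAK1 (0.03) and BCL2L11 (0.02) in C4-2B, BCL2 in 22Rv1 (-0.07), BID in DU145 (0.02) and the BIK difference of C4-2B less 22Rv1 (0.07), and in the fit over 18 libraries BCL2 in 22Rv1 (-0.03). On leaving out single libraries, the values ran from -0.09 to 0.03 for BAK1, from -0.07 to 0.02 for BCL2L11 and from -0.0056 to 0.18 for BID in C4-2B, from -0.06 to 0.06 for BCL2 in 22Rv1, from -0.11 to 0.07 for BID in DU145, from -0.13 to 0.06 for the BIK difference of C4-2B less 22Rv1, and from -0.37 to 0.08 for the BCL2 difference of C4-2B less DU145. The cause was not tested. Leaving out single libraries gave 3 members called in C4-2B each time, 8 in 22Rv1 and 5 to 6 in DU145; 5620 to 6258, 10661 to 11016 and 8213 to 9525 genes; 18 to 26, 41 to 45 and 35 to 41 other apoptosis genes; 6 to 7, 6 to 7 and 8 to 10 differing members; and 8 to 9, 9 to 10 and 10 control-level members. In a paired analysis, the replicate block gave 3078 up and 3545 down in C4-2B and 5540 and 5606 in 22Rv1. In DU145 it gave 4999 and 4861. It called 4, 8 and 6 members in the 3 lines. For same-numbered libraries, the deviations of log2 CPM from the arm mean correlated between -0.052 and 0.314. Of 9 pairs, 3 were best matched to their own number, so the numbers were not taken to pair samples. The 0.314 was replicate 2 of DU145, which matched its own number. There the block raised the genes called from 9232 to 9860, and a shared replicate effect was not tested. Among the members, depth limits BCL2, BIK and BMF in DU145 and BCL2 in C4-2B.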
